A study of Homo sapiens with 6 samples.

Results

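The mRNAs of the La and La-related proteins were followed through an RNA immunoprecipitation experiment (RIP-seq) whose bait was a member of the same family, LARP1. The 7 genes (LARP1, LARP1B, LARP4, LARP4B, LARP6, LARP7 and SSB, which encodes La itself) were found by Ensembl ID among the 60554 gene IDs listed for each library, and all 7 had counts in all 6 libraries. Cells were HCT116, a human colorectal carcinoma line labelled as colon epithelial cells, and no genotype or drug treatment was given for any group. All RNA came from the free 40S fraction of a sucrose gradient, which holds small ribosomal subunits outside assembled ribosomes. The groups were RNA pulled down by an antibody against LARP1 (LARP1 RIP, n = 2), RNA pulled down by IgG of normal rabbit serum as the background (IgG RIP, n = 2), and unselected RNA of the fraction (Input, n = 2). The labels call the libraries of a group biological replicates and name no culture, so a p-value speaks only of the spread among these libraries. The cell type was not checked against markers here, because the files give IDs without symbols.

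Proteins of this family share the La motif, an RNA-binding fold usually followed by an RNA recognition motif. La binds the uridine-rich 3′ ends of new RNA polymerase III transcripts, and the related proteins have taken on separate RNA targets. LARP1 binds the cap and the adjoining terminal oligopyrimidine (TOP) motif of mRNAs for ribosomal proteins and translation factors, and it acts downstream of mTORC1, a kinase that couples growth to nutrients. The comparisons ask whether any mRNA of the family was recovered with LARP1 above background and above its level in the fraction.

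Because LARP1 is known for reading the first bases of an mRNA, the annotated starts of the family are shown first. RefSeq (GRCh38.p14) gave 16 start windows for the 7 genes. Each line holds 30 bases of the gene's strand, 10 before the annotated start and 20 from the start onward, for the first-listed start of a gene and, for the bait LARP1 and for SSB, every start. Capitals mark a C followed by at least 4 bases that are each C or T, on the gene's strand only, where such a run begins at the start or, failing that, within 10 bases of it (the longest run).
LARP1, chr5:154682969-154682998, plus strand: ctccgccgccagaggctgagtcatcgctgc
LARP1, chr5:154712833-154712862, plus strand: gagCTCCCgggccagagccaggaggcagct
LARP1, chr5:154755367-154755396, plus strand: tCCCCCgtccgtccatattgctgcagcccc
LARP1, chr5:154757144-154757173, plus strand: CCTTCCCagcattcctctgcagccgggaca
LARP1B, chr4:128061302-128061331, plus strand: ctccgcgggcagttaccagctttggctgct
LARP4, chr12:50400875-50400904, plus strand: gcaggggaggagccgggtccactgccgggt
LARP4B, chr10:931686-931715, minus strand: ccggaagtgggagctgtgtgttctcatgcg
LARP6, chr15:70854138-70854167, minus strand: CCCTCgtcgcagtcgctgccgaccggctgg
LARP7, chr4:112637133-112637162, plus strand: gttgtcgctcatcctatgacgcgaaagtaa
SSB, chr2:169798861-169798890, plus strand: gacggtccccatCTTCTTggagcgctttag
SSB, chr2:169799292-169799321, plus strand: tttttttttaCCTCCaccgccttctagtct

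The only family start with such a run at its first base was the second SSB start, 1 of 16 windows (6.25%). Among all 35116 windows of the RefSeq table the share was 4.07%, and among 79 windows of 64 ribosomal protein gene symbols, the best known TOP class, it was 58.2%. Within 10 bases of the start the run occurred in 7 of the 16 family windows (43.8%), in 33.5% of all windows and in 81% of the ribosomal protein windows. LARP1 held 3 of these 7 windows, its other starts after the first-listed. Their longest runs, of 5, 5 and 7 bases, ended before the annotated start. The window with the run of 7 bases also held a shorter one, left in lower case, that began after the annotated start. None of the 4 annotated LARP1 starts began with C. The second-listed LARP1B start, not printed above, held another of the 7 windows, with a run of 5 bases after the annotated start. Which of these starts HCT116 cells use was not tested, and a match describes letters in a window, not a binding site.

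Library totals ran from 4135463 to 5211809 counts in the LARP1 RIP, from 7356269 to 8069554 in the IgG RIP and from 6424655 to 6632952 in Input. The 2 genes with the most counts took 21.3% to 26.6% of the LARP1 RIP, 70.9% to 71.5% of the IgG RIP and 87.9% to 88.6% of Input. Outside them, Input held the fewest counts (752862 and 778680), and the counts of a family member there ranged from 15 to 127. All 7 members passed the low-count filter. Levels below are CPM, counts scaled to library size with TMM factors, which sets the bulk of genes equal between libraries. They are not corrected for gene length, so a level is compared only with levels of the same gene. A level describes RNA recovered from the fraction or in a pulldown, not expression in the whole cell. In bulk RNA, fewer cells holding a transcript and fewer transcripts per cell cannot be told apart.

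LARP1 (ENSG00000155506.16; chromosome 5, 154682979 to 154817605) encodes the protein that was precipitated. Its mRNA had 194 and 260 counts in the LARP1 RIP, 307 and 551 in the IgG RIP and 56 and 127 in Input. As levels these were 20.4 and 48.4 CPM in the LARP1 RIP, 28.4 and 54.7 CPM in the IgG RIP and 18.8 and 39.4 CPM in Input. The groups overlapped in every comparison, and replicate 2 was above replicate 1 in each group, by 2.38-fold in the LARP1 RIP, 1.93-fold in the IgG RIP and 2.098-fold in Input. The log2 fold change was -0.28 ± 0.51 against the IgG RIP (SE; 95% interval -1.38 to 0.83; edgeR adjusted p = 0.786) and 0.23 ± 0.52 against Input (-0.90 to 1.36; adjusted p = 0.851). The upper bounds correspond to a 1.77-fold and a 2.56-fold higher level in the LARP1 RIP. No difference of LARP1 mRNA relative to the bulk of genes was detectable in either comparison. With total-count scaling the value against Input was 1.83 (edgeR adjusted p = 0.0111), where the median of all genes stood at 1.75, so the bounds hold for TMM scaling only.

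LARP1B (ENSG00000138709.17; chromosome 4, 128060789 to 128222926) encodes the closest paralog of LARP1. It stood at 4.41 and 2.98 CPM in the LARP1 RIP, 8.32 and 4.76 CPM in the IgG RIP and 7.72 and 6.83 CPM in Input. Both LARP1 RIP libraries lay below all 4 others. Without overlap, 25.9% of all tested genes were lower than in the IgG RIP and 22.8% lower than in Input. The share lower than both was not counted. The log2 fold change was -0.80 ± 0.46 against the IgG RIP (SE; edgeR adjusted p = 0.300). The value against Input was -0.95 ± 0.49 (adjusted p = 0.283 by edgeR), so neither passed the threshold, and with total-count scaling the value against Input turned to 0.80 while the median of all genes moved to 1.75. How far reads of LARP1 and LARP1B can be exchanged in the counting is not known here, since the treatment of reads with several matches is not given in the sources used here.

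LARP4 and LARP4B encode proteins that bind poly(A)-binding protein and are known for stabilising mRNAs. LARP4 (ENSG00000161813.20; chromosome 12, 50400885 to 50480004) stood at 10.7 and 3.35 CPM in the LARP1 RIP, 20.6 and 14.8 CPM in the IgG RIP and 15.8 and 16.1 CPM in Input. It had the lowest fold change of the family in both LARP1 RIP comparisons, and both LARP1 RIP libraries lay below all 4 others. Of all tested genes, 25.9% were lower than the IgG RIP without overlap and 22.8% lower than Input, and the share lower than both was not counted. The log2 fold change was -1.30 ± 0.50 against the IgG RIP (SE; 95% interval -2.37 to -0.22; unadjusted p = 0.0215, edgeR adjusted p = 0.120). Against Input it was -1.15 ± 0.51 (95% interval -2.25 to -0.04; unadjusted p = 0.0428, edgeR adjusted p = 0.221), and it turned to 0.67 with total-count scaling, against a median of all genes of 1.75. LARP4 was the only member with an unadjusted p under 0.05, and it did not pass after adjustment over all 10788 genes. With the replicate number entered as a block it passed as lower against both controls, at -1.38 and -1.28 (edgeR adjusted p = 0.0083 and 0.0309). In that fit 909 and 551 of all tested genes were called lower, and the labels do not say whether a number marks a shared preparation. The spread between the LARP1 RIP libraries was 3.20-fold, with 102 counts in replicate 1 and 18 in replicate 2. Without LARP1 RIP replicate 1 the log2 fold changes of LARP4 against the IgG RIP and Input were -2.39 and -2.24. Without replicate 2 they were -0.72 and -0.56. Each of these fits leaves 1 LARP1 RIP library with no spread of its own, so only the sizes are given.

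LARP4B (ENSG00000107929.14; chromosome 10, 806914 to 988341) stood at 9.86 and 15.4 CPM in the LARP1 RIP, 15.4 and 18.1 CPM in the IgG RIP and 11.4 and 15.8 CPM in Input. The LARP1 RIP overlapped both controls. The log2 fold change was -0.41 ± 0.41 against the IgG RIP (SE; edgeR adjusted p = 0.575). The value against Input was -0.12 ± 0.43 (adjusted p = 0.915 by edgeR). Total-count scaling gave 1.54 against Input (edgeR adjusted p = 0.0118), below the 1.75 of the median gene under the same scaling.

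LARP6 (ENSG00000166173.10; chromosome 15, 70829130 to 70854157) encodes a protein known for binding a stem-loop of type I collagen mRNAs. It stood at 7.34 and 8.74 CPM in the LARP1 RIP, 4.71 and 6.95 CPM in the IgG RIP and 5.03 and 4.97 CPM in Input. It was the only member whose LARP1 RIP libraries both lay above all 4 others. Without overlap, 27.3% of all tested genes were higher than in the IgG RIP and 28.8% higher than in Input. The share higher than both was not counted. The log2 fold change was 0.46 ± 0.42 against the IgG RIP (SE; 95% interval -0.44 to 1.36; edgeR adjusted p = 0.532) and 0.68 ± 0.45 against Input (-0.30 to 1.66; adjusted p = 0.428). Neither passed the threshold. With total-count scaling LARP6 passed against Input, at 2.38 (edgeR adjusted p = 0.0021), above the median gene at 1.75, and was at 0.67 against the IgG RIP (adjusted p = 0.407). Both values turned negative, to -0.73 and -0.32, when libraries were scaled by their counts outside the 2 most abundant genes, a scaling under which the median gene stood at -1.25 and -0.94. The Input level rested on 15 and 16 counts.

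LARP7 and SSB belong to the branch of the family that works on RNA polymerase III transcripts: LARP7 holds the 7SK RNA, which keeps the elongation kinase P-TEFb inactive, and La protects new transcripts. LARP7 (ENSG00000174720.15; chromosome 4, 112637143 to 112657586) stood at 10.7 and 1.12 CPM in the LARP1 RIP, 9.89 and 3.77 CPM in the IgG RIP and 7.38 and 4.66 CPM in Input. SSB (ENSG00000138385.15; chromosome 2, 169798871 to 169812064) stood at 11.2 and 2.05 CPM in the LARP1 RIP, 9.33 and 3.57 CPM in the IgG RIP and 7.38 and 4.97 CPM in Input. For both genes the LARP1 RIP held the highest and the lowest of the 6 libraries, from 102 and 6 counts of LARP7 and 107 and 11 counts of SSB. The log2 fold changes against the IgG RIP were -0.15 ± 0.71 for LARP7 and 0.08 ± 0.64 for SSB (SE; edgeR adjusted p = 0.926 and 0.952). Against Input they were 0.04 ± 0.76 for LARP7 and 0.15 ± 0.69 for SSB (SE; edgeR adjusted p = 0.989 and 0.935). The LARP1 RIP libraries stood on either side of the controls: without LARP1 RIP replicate 1, LARP7 was at -2.60 against the IgG RIP, and without replicate 2 it was at 0.65. SSB was at -1.65 and 0.80 in the same fits. Each of these fits leaves 1 LARP1 RIP library with no spread of its own, so only the sizes are given.

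**Figure D1:**
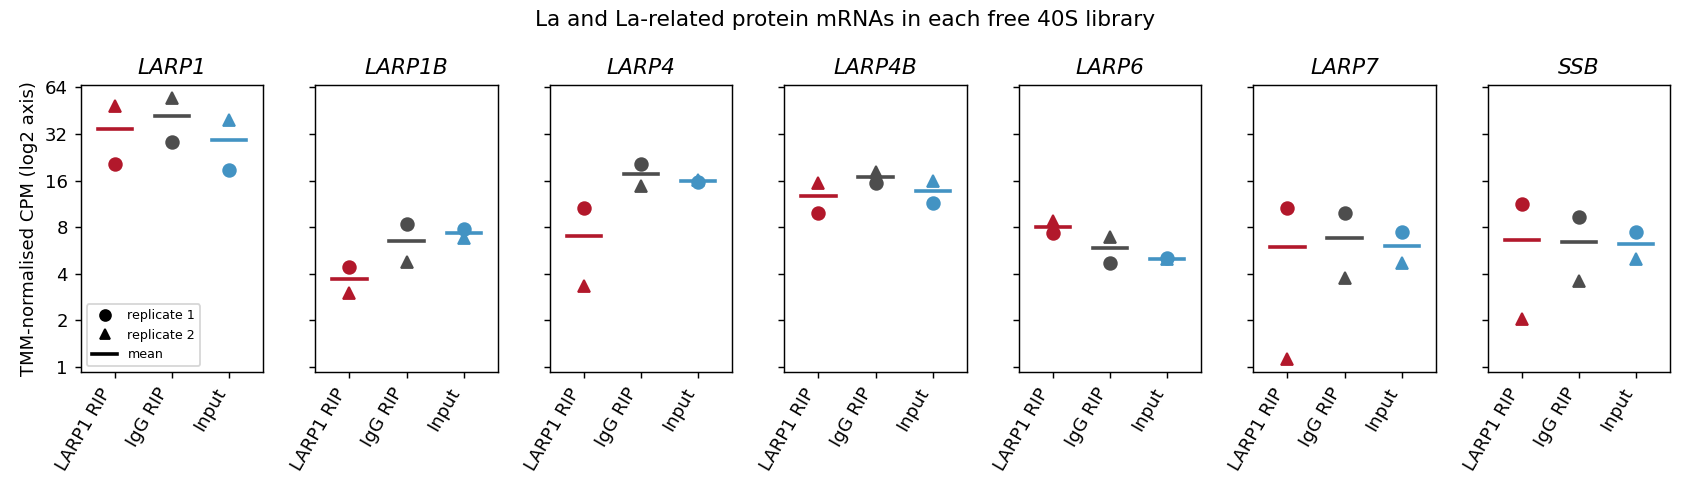
TMM-normalised CPM (log2 axis) of each La or La-related protein mRNA in the LARP1 RIP, IgG RIP and Input, with a circle for replicate 1, a triangle for replicate 2 and a bar for the mean of the group. Both LARP1 RIP libraries lie below the other 4 for LARP1B and LARP4 and above them for LARP6. Without overlap, 27.3% of all tested genes were higher and 25.9% lower than in the IgG RIP, and 28.8% and 22.8% than in Input. The shares higher or lower than both controls were not counted. LARP7 and SSB span 10.7 to 1.12 and 11.2 to 2.05 CPM within the LARP1 RIP. Panels are not length-corrected and are not to be compared with each other.

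Across the family, edgeR's quasi-likelihood test called 0 of 7 members in the LARP1 RIP against the IgG RIP, where 10.8% of the 10788 tested genes were called (8.54% higher and 2.29% lower), and 0 of 7 against Input, where 6.15% were called (4.63% higher and 1.52% lower). In each comparison 1 member, LARP4, had an unadjusted p under 0.05, against 25.1% and 21% of all tested genes. DESeq2 also called 0 of 7 in either. Of all tested genes it called 891 higher and 248 lower against the IgG RIP, and 535 and 197 against Input. A list of 7 genes called at these background shares would hold few or no calls. With the replicate number entered as a block, 1 member, LARP4, was called lower in each comparison, where 909 and 551 of all tested genes were called lower. The members' log2 fold changes ran from -1.30 to 0.46 against the IgG RIP, with a median of -0.28 beside -0.06 for all tested genes, and from -1.15 to 0.68 against Input, with a median of 0.04 beside 0.03.

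Libraries of the LARP1 RIP and the IgG RIP did not overlap for 1 member that was higher (LARP6; 27.3% of all genes) and 2 that were lower (LARP1B and LARP4; 25.9% of all genes). Against Input the same 3 members did not overlap, 1 higher (28.8% of all genes) and 2 lower (22.8%). Both comparisons use the same LARP1 RIP libraries. Ranked among all tested genes by fold change against the IgG RIP, LARP4 stood at percentile 7.22, LARP1B at 19.4, LARP1 at 40.3 and LARP6 at 70.4. No member therefore lay in the upper quartile of the comparison, and LARP4 and LARP1B lay in the lower one. Against Input LARP4 stood at percentile 9.31, LARP1B at 13.5 and LARP6 at 74.9.

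**Figure D2:**
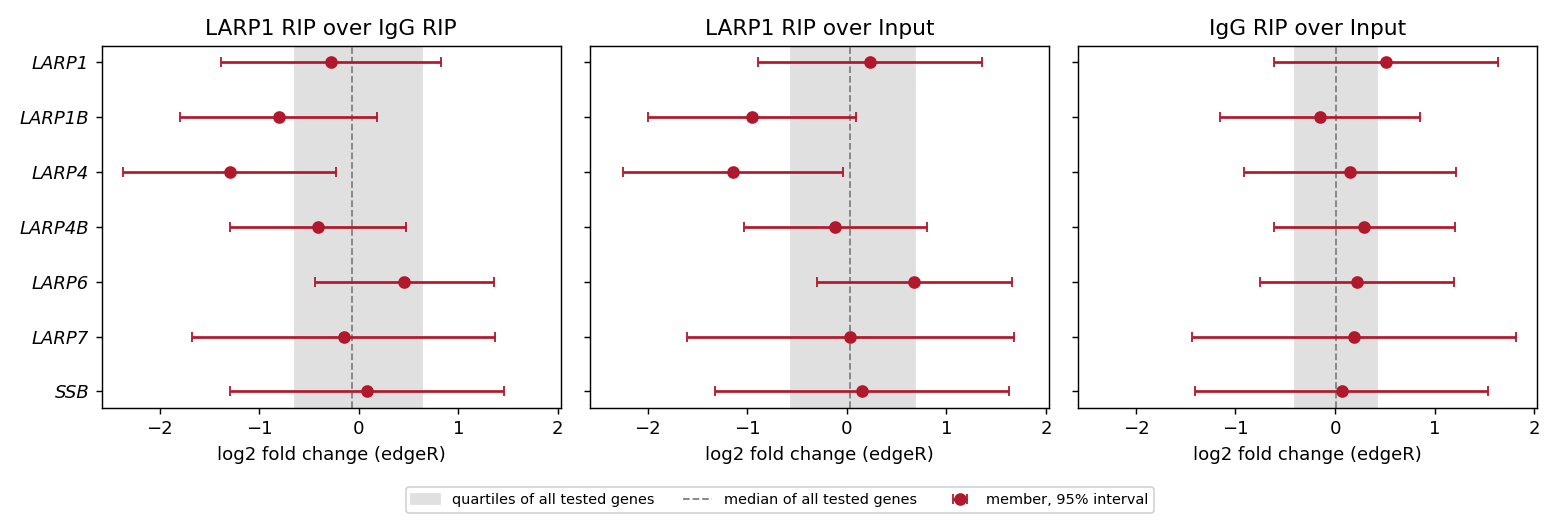
Log2 fold change of each family member (points, with 95% intervals from edgeR) in the LARP1 RIP over the IgG RIP, the LARP1 RIP over Input and the IgG RIP over Input. The grey band spans the quartiles and the dashed line marks the median of all 10788 tested genes; the interval of LARP4 ends below 0 in both LARP1 RIP comparisons, and those of the other members include 0.

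The IgG RIP was set against Input to see what the control serum recovers. By edgeR 0 of 7 members were called, as were 0% of all tested genes (6.72% had an unadjusted p under 0.05, and DESeq2 called 19 genes higher and 19 lower, with no member among them, though it gave an adjusted p to only 3 of 7: LARP1, LARP4 and LARP4B). No member had an unadjusted p under 0.05. Log2 fold changes ran from -0.15 ± 0.46 for LARP1B to 0.51 ± 0.52 for LARP1 (SE; edgeR adjusted p = 0.971 and 0.895), with a median of 0.19 beside 0.01 for all genes. All 7 members overlapped between the groups, where 19.2% of all genes were higher and 19.3% lower without overlap. Total-count scaling moved the median gene to 1.51 and called 5 members higher (LARP1, LARP1B, LARP4, LARP4B and LARP6). Under that scaling 5816 of all 10788 tested genes were called higher.

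How much of the recovered RNA the family made up depended on what the levels were set against. The 7 members together had 711 and 441 counts in the LARP1 RIP, 1046 and 1074 in the IgG RIP and 219 and 299 in Input. On the TMM scale their sum was 74.6 and 82.0 CPM in the LARP1 RIP, 96.6 and 106.6 CPM in the IgG RIP and 73.5 and 92.8 CPM in Input, so the LARP1 RIP lay below the IgG RIP and overlapped Input. As CPM of the counts outside the 2 most abundant genes, LARP1 mRNA had 50.7 (exact 95% interval 43.9 to 58.4) and 79.9 (70.4 to 90.2) in the LARP1 RIP. It had 143 (128 to 160) and 240 (220 to 260) in the IgG RIP and 74.4 (56.2 to 96.6) and 163 (136 to 194) in Input. The intervals cover counting error only and leave out the spread between libraries. Reads without molecular identifiers are not independent molecules, so the intervals may be too narrow even for counting error. Scaled in this way, LARP1, LARP1B, LARP4 and LARP4B passed the test as lower than in the IgG RIP, at log2 fold changes of -1.56, -1.97, -2.39 and -1.66 (edgeR adjusted p = 0.0316, 0.0201, 0.0183 and 0.0168). The median of all genes under that scaling was -1.25 and 4094 genes were called lower, so LARP1 and LARP4B stood within 0.5 of the median gene. 0 members were called against Input with this scaling, where 183 of all tested genes were called higher and 1168 lower.

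The make-up of the family within a library needs no scaling between libraries. LARP1 took 27.3% (exact 95% interval 24.0 to 30.7) and 59.0% (54.2 to 63.6) of the family's counts in the LARP1 RIP. It took 29.3% (26.6 to 32.2) and 51.3% (48.3 to 54.3) in the IgG RIP and 25.6% (19.9 to 31.9) and 42.5% (36.8 to 48.3) in Input. In every group the LARP1 share was higher in replicate 2 than in replicate 1. That difference, in each group, was larger than any difference between groups within a replicate number. In Input this held only narrowly, with shares resting on 56 and 127 LARP1 counts. LARP7 took 14.3% and 1.36% of the LARP1 RIP family counts, 10.2% and 3.54% in the IgG RIP and 10.05% and 5.02% in Input. SSB took 15.0% and 2.49% in the LARP1 RIP, 9.66% and 3.35% in the IgG RIP and 10.05% and 5.35% in Input. Both were lower in replicate 2 of every group. LARP6 took 9.85% and 10.7% in the LARP1 RIP, 4.88% and 6.52% in the IgG RIP and 6.85% and 5.35% in Input. Its share was higher in both LARP1 RIP libraries than in the other 4, and the intervals of the replicates overlapped within each group. The LARP1 RIP intervals, which began at 7.76% and 7.94%, also overlapped those of IgG RIP replicate 2 and of both Input libraries. Only the interval of IgG RIP replicate 1, which ended at 6.36%, lay below both. The Input shares of LARP6 rested on 15 and 16 counts.

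**Figure D3:**
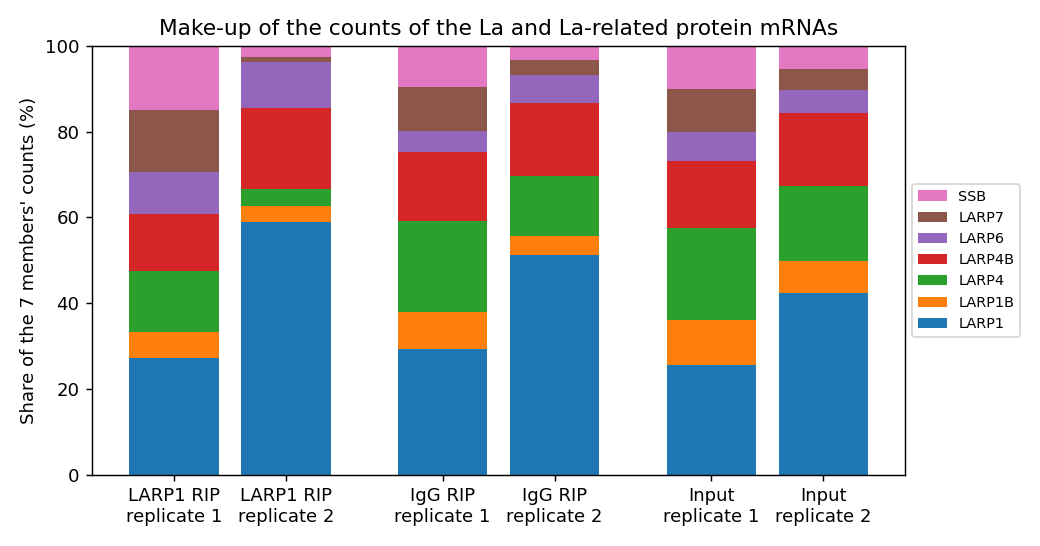
Share (%) of the counts of the 7 members taken by each member in each library of the LARP1 RIP, IgG RIP and Input, replicate 1 beside replicate 2. LARP1 takes 27.3%, 29.3% and 25.6% in the replicates numbered 1 and 59.0%, 51.3% and 42.5% in those numbered 2, in the order LARP1 RIP, IgG RIP and Input, and LARP7 and SSB shrink in every replicate numbered 2.

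The same contrast between replicate numbers appeared in the levels. On the log2(CPM + 1) scale LARP1 was higher in replicate 2 by 1.21 in the LARP1 RIP, 0.92 in the IgG RIP and 1.03 in Input, at percentiles 96.0, 94.6 and 94.1 of all tested genes. LARP7 had differences of -2.47, -1.19 and -0.57 in the same groups, at percentiles 0.185, 3.71 and 16.6. SSB had differences of -2.005, -1.18 and -0.49, at percentiles 0.542, 3.81 and 19.8. In all 3 groups 2 members were higher in replicate 2 (LARP1 and LARP4B; 21.6% of all tested genes) and 3 were lower (LARP1B, LARP7 and SSB; 16.9% of all tested genes). LARP4 and LARP6 differed in sign between groups. With 2 libraries a group these are descriptions without a test, and whether a number marks a shared preparation is not given in the labels.

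**Figure D4:**
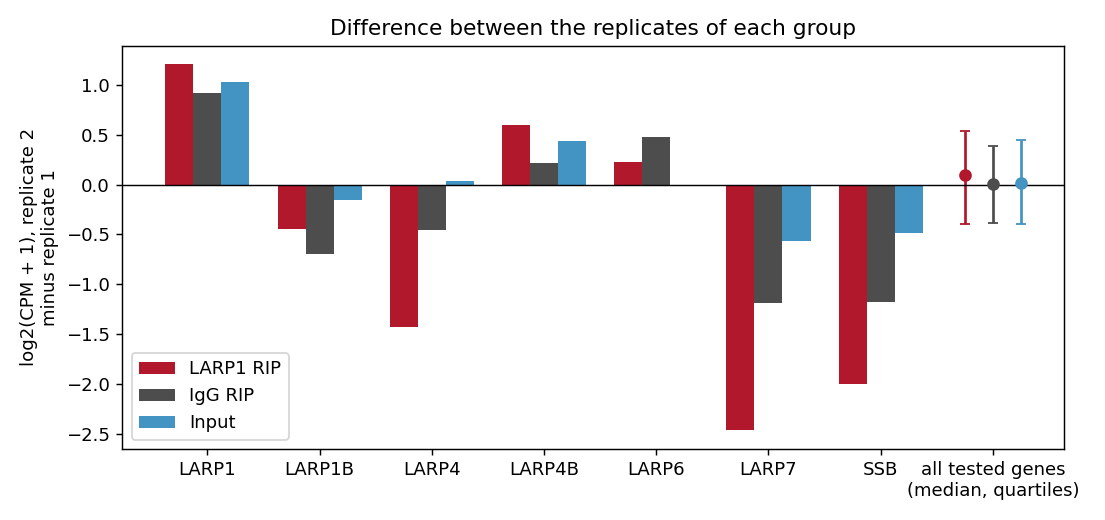
Difference in log2(CPM + 1) between replicate 2 and replicate 1 within the LARP1 RIP, IgG RIP and Input for each family member (bars), with the median and quartiles of all tested genes at the right. LARP1 is above 0 by 0.92 to 1.21 in all 3 groups, and LARP7 and SSB are below 0 in all 3, most in the LARP1 RIP (-2.47 and -2.005).

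On the log2(CPM + 1) scale and set against the library of the same number, LARP7 in the LARP1 RIP differed from the IgG RIP by 0.10 in replicate 1 and -1.17 in replicate 2, and SSB by 0.24 and -0.59. Against Input LARP7 was at 0.48 and -1.42 and SSB at 0.54 and -0.97. Both genes therefore changed sign between the numbers in either comparison. LARP1 was at -0.46 and -0.17 against the IgG RIP and at 0.11 and 0.29 against Input, and LARP4B at -0.60 and -0.21 against the IgG RIP and -0.19 and -0.03 against Input. For LARP1B, LARP4 and LARP6, whose LARP1 RIP libraries did not overlap the others, any pairing gives a fixed sign.

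Among 3068 genes, made up of the other 6 members and all non-members with a mean of at least 10 CPM, the profile over the 6 libraries most like that of LARP1 belonged to ENSG00000121060.14 and ENSG00000132170.19. Their Euclidean distances were 0.35 each on the centred log2(CPM + 1) scale. The files pair neither ID with a name. The nearest member was LARP4B, at rank 83 with a distance of 0.85, followed by LARP6 at rank 432. LARP1B stood at rank 1872, LARP4 at 2515, SSB at 2690 and LARP7 at 2814. The 6 points share their libraries and scaling factors, so likeness is a description.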

How the data were processed

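The deposited values were the authors' raw read counts per Ensembl gene ID, unpooled and in a file for each library. The submitters' processing notes name CASAVA 1.8, TopHat2 2.1.1, Bowtie2, Subread 1.20.6 and featureCounts, and build GRCh38. Libraries were stranded without poly(A) selection, per the labels' protocols. Annotation release and strand setting: not given in the sources used here, so reads of overlapping genes may be shared. Groups came from sample titles.

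Members and lists were chosen with earlier results of these data known. All 7 members were named, whatever their values, with the 2 non-members most like LARP1. Planned partner and cell marker lists were not applied, because the IDs could not be named.

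Counts were analysed in R 4.3.3 with edgeR 4.0.16: filterByExpr (minimum count 10; 10788 genes kept), TMM, and 1 quasi-likelihood fit of all 6 libraries (3 residual degrees of freedom), tested on simulated data. Calls needed a Benjamini-Hochberg adjusted p below 0.05 within a comparison. SE is the size of the log2 fold change divided by the square root of F. Alternatives were DESeq2 1.42.0, 3 other scalings, 2 other filters, fits of 4 libraries, a replicate block and leaving out each library.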

Additional observations from a re-analysis of the deposited data

How the results depend on the processing

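No member passed the threshold in the fit reported. Of 294 member values under 14 alternatives for each of 3 comparisons, 233 kept their direction without passing the threshold (4 of them, from DESeq2, with no adjusted p), 15 passed it in the same direction and 46 changed sign, 2 of them with a call. For all genes, pairs of numbers count those higher, then those lower, in the group named before the other, where 921 and 247 were called against the IgG RIP, 499 and 164 against Input, and 0 and 0 for the IgG RIP against Input. Total counts gave 1004 and 75, 6566 and 27, and 5816 and 6. Scaling by totals that leave out the 2 most abundant genes gave 355 and 4094, 183 and 1168, and 2 lower for the IgG RIP. With no filter on low counts, 821 were higher than Input, and 56 and 17 were called for the IgG RIP. Fits of 4 libraries gave 80 lower than the IgG RIP, and 5 and 8 for the IgG RIP. DESeq2 gave 19 and 19 for the IgG RIP. Leaving out each library gave 578 to 977 and 65 to 307 against the IgG RIP, 0 to 723 and 0 to 279 against Input, and 0 to 41 and 0 to 11 for the IgG RIP. The 0 counts against Input arose without Input replicate 1 or 2 (1872 and 1189 genes at an unadjusted p under 0.05), as did those for the IgG RIP (404 and 458 genes).

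The titles number the replicates alike in each group and name no batch. Deviations from the group mean of libraries with the same number had a correlation of 0.29 (IgG RIP and Input), 0.54 (LARP1 RIP and IgG RIP) and 0.13 (LARP1 RIP and Input), a hint from the data only. Entering the number as a replicate block left 1526 higher and 909 lower than the IgG RIP, 1083 and 551 than Input, and 39 and 35 for the IgG RIP. LARP4 passed in this fit, at -1.38 and -1.28 against the IgG RIP and Input (edgeR adjusted p = 0.0083 and 0.0309). With the block SSB changed sign to -0.067 against the IgG RIP, -0.10 against Input and -0.037 in the IgG RIP against Input, and LARP7 to -0.29 against Input.

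Sign changes without a call were these. Against the IgG RIP, total counts gave LARP7 0.15, total counts without the 2 genes gave LARP6 -0.73 and SSB -0.99, and the filter at 50 counts gave SSB -0.041. Against Input, total counts gave LARP1B 0.80 and LARP4 0.67. Total counts without the 2 genes gave LARP1 -0.88, LARP6 -0.32, LARP7 -0.76 and SSB -0.67. LARP7 was at -0.035 with DESeq2, -0.093 with upper-quartile factors, -0.15 with the filter at 50 counts and -0.0039 in the fit of 4 libraries, SSB was at -0.027 with that filter, and LARP4B was at 0.030 without a filter. In the IgG RIP against Input, LARP1B was at 0.089 with total counts without the 2 genes and 0.0061 without a filter. Total counts also gave calls without a sign change, LARP1 at 1.83 and LARP6 at 2.38 against Input (edgeR adjusted p = 0.0111 and 0.0021). They gave the 2 sign changes with a call, LARP4B at 1.54 against Input (edgeR adjusted p = 0.0118) and LARP1B at 1.39 in the IgG RIP against Input (adjusted p = 0.0499), both under the median gene of that scaling.

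Leaving out each library moved log2 fold changes against the IgG RIP between -1.02 and 0.26 for LARP1, -2.60 and 0.71 for LARP7 and -1.65 and 0.94 for SSB. Against Input they lay between -0.50 and 0.87 for LARP1, -0.45 and 0.19 for LARP4B, -2.40 and 0.85 for LARP7 and -1.57 and 0.88 for SSB. In the IgG RIP against Input they lay between -0.055 and 1.15 for LARP1, -0.61 and 0.17 for LARP1B, -0.11 and 0.35 for LARP4, -0.11 and 0.48 for LARP6, -0.67 and 0.69 for LARP7 and -0.78 and 0.57 for SSB. A lone library was assumed to vary like the other groups. Beyond construction (scaling, filter, fewer libraries), the cause was not tested. Counting error is largest where members had few counts: LARP1B, LARP4, LARP7 and SSB had their fewest in LARP1 RIP replicate 2 (16, 18, 6 and 11), and LARP1, LARP4B and LARP6 in Input replicate 1 (56, 34 and 15).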
